A study of Mus musculus with 2 samples.

Results

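Mitochondrial ribosomal proteins are the nuclear-encoded proteins of the ribosome that works inside mitochondria, and their genes were taken as those whose symbol starts with Mrpl (large subunit) or Mrps (small subunit) followed by a digit. The set was chosen by symbol with the log2 signals of both arrays already known, so these values describe the members and support nothing beyond themselves. By that rule 80 of the 23521 probe sets that name exactly 1 gene belonged to them. These 80 read 71 of 22180 genes, 43 named for the large and 28 for the small subunit. The genes were read in mouse CD8+ T cells on 2 arrays, 1 of cells grown with bezafibrate at 30 µM and 1 of cells grown with DMSO, its solvent, as the control. In both cultures naive cells had been activated with beads carrying antibodies to CD3 and CD28 in 100 U/mL recombinant human interleukin-2, and the design describes expansion until day 13. Bezafibrate, a lipid-lowering drug that activates the PPAR nuclear receptors, was present throughout. The labels name no strain, age, sex or number of animals, and 1 array stands for each group. No difference therefore has a replicate error or a test, and every ratio compares 2 arrays, not 2 conditions.

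The mitochondrial ribosome, or mitoribosome, translates the few messenger RNAs that mitochondrial DNA encodes, all of them for subunits of the respiratory chain and of ATP synthase. Its ribosomal RNAs come from mitochondrial DNA, while all of its proteins are encoded in the nucleus, made in the cytosol and imported. Some of these proteins descend from bacterial ribosomal proteins and others are specific to mitochondria. The small subunit binds and decodes the messenger RNA, and the large subunit joins amino acids and feeds the new chain through a tunnel to the inner membrane. Activated T cells enlarge their mitochondria and need mitochondrial translation for sustained respiration.

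A value here is the log2 signal of a probe set, and the log2 ratio is bezafibrate minus DMSO, so that a negative ratio means less signal with bezafibrate. Where a gene had several probe sets, the brightest stood for it. A gene lay above the floor when either array exceeded its own median over all named genes, 4.85 with bezafibrate and 4.88 with DMSO, and 11448 genes did. The cells carried the markers of their label: Cd3e read 11.05 with bezafibrate and 11.10 with DMSO, and Cd8a 10.68 and 10.82. All 6 CD8 T cell markers with a value were above the floor and lower with bezafibrate, by log2 ratios of −0.30 to −0.06. Of the CD4 markers, Cd4 and Cd40lg were within the range of silent odorant and pheromone receptor genes on both arrays, and Foxp3 read 5.02 and 4.95. Of the B cell markers, Cd79a and Ms4a1 were within that range, whereas Ighm read 8.72 with bezafibrate and 9.05 with DMSO and Cd79b 4.85 and 5.41. Of 4 macrophage markers, Cd68 was above the floor, at 6.92 and 6.91, and the red cell markers had no probe set of their own. The part of other cells in the values below was not tested, and in a culture read as a whole, fewer cells of a type and less RNA per cell cannot be told apart.

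Genes of the mitoribosome were mostly lower with bezafibrate, by small amounts. Of the 70 members above the floor, 54 were lower, 15 higher and 1, Mrps2, equal. Over all genes above the floor 49.6% were lower and 48.4% higher. The members' median log2 ratio was −0.12, against 0.00 over all genes. At a limit of 1.2-fold 15 members were lower and 0 higher on their brightest probe sets. Of all genes 10.4% were lower and 9.58% higher by that much. At 1.5-fold 2 members were lower, Mrpl32 and Mrps16, and 0 higher, against 0.524% and 0.664% of all genes. None of the 70 differed 2-fold, a limit that 0% of all genes passed downward and 0.0874% upward. Of all genes above the floor 95% had ratios between −0.42 and 0.41. Within that range lay 64 members, below it 6 and above it 0. The members' middle 50% lay between −0.24 and −0.01.

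**Figure D1:**
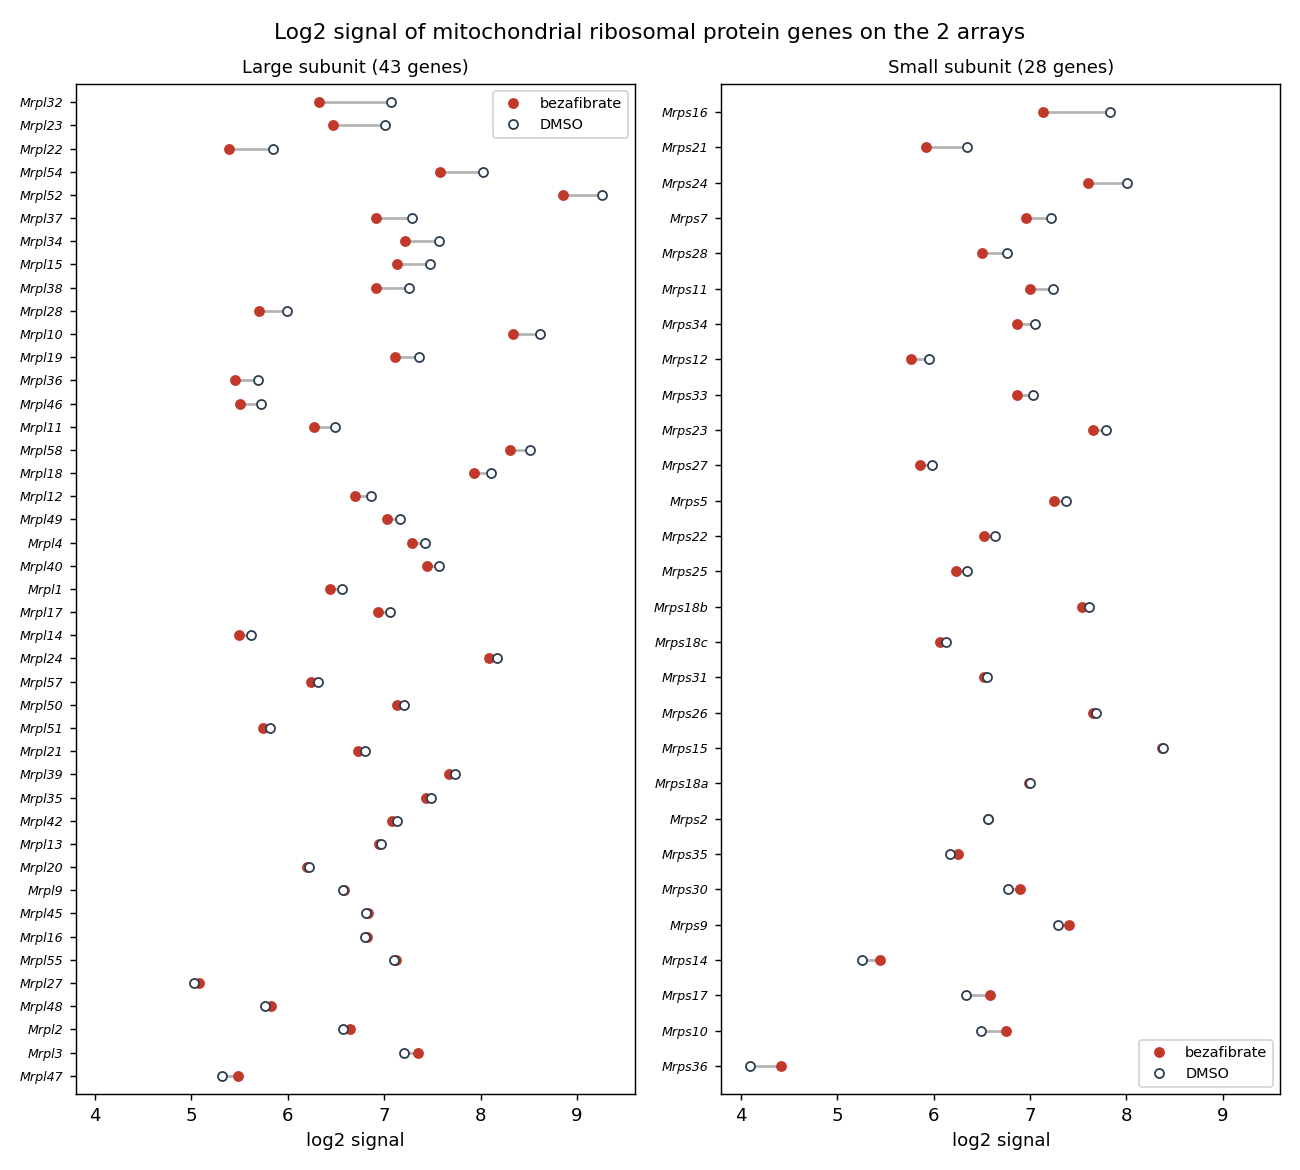
Log2 signal of each member with bezafibrate (filled circles) and with DMSO (open circles), large subunit left and small subunit right, in order of the log2 ratio from lowest to highest; a grey line joins the values of a gene. The filled circle lies left of the open one for most genes, by most in Mrpl32 and Mrps16, and the order turns near the bottom of each panel.

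Of the 43 large subunit genes 34 were lower, where 49.6% of all genes above the floor were. The subunit's median log2 ratio was −0.12, and Mrpl32 stood lowest. Mrpl32 encodes a protein that a mitochondrial protease must trim before the ribosome can be assembled. It read 6.33 with bezafibrate and 7.08 with DMSO, a 1.68-fold lower signal. Mrpl23, a protein at the exit of the peptide tunnel, read 6.46 with bezafibrate and 7.01 with DMSO (1.46-fold lower). Mrpl22, which also lines the tunnel, read 5.39 and 5.84 in the same order (1.37-fold lower). These were the largest differences of the subunit, and the genes next in order are specific to mitochondria. Mrpl54 read 7.58 with bezafibrate and 8.03 with DMSO (1.36-fold lower). Mrpl52, the brightest member on both arrays, read 8.86 with bezafibrate and 9.26 with DMSO (1.32-fold lower). Mrpl37 read 6.92 with bezafibrate and 7.29 with DMSO (1.29-fold lower). Mrpl34, Mrpl15, Mrpl38, Mrpl28 and Mrpl10 followed, with log2 ratios from −0.35 for Mrpl34 to −0.28 for Mrpl10. They complete the 11 members of this subunit at least 1.2-fold lower, where 10.4% of all genes above the floor were.

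At the other end, 9 large subunit genes were higher with bezafibrate, none by 1.2-fold. Mrpl47, whose protein sits near the tunnel exit, read 5.48 with bezafibrate and 5.32 with DMSO, a log2 ratio of 0.16. Its second probe set, within the range of the silent receptor genes, did not share it. Mrpl3, a counterpart of a bacterial protein at the core of the subunit, read 7.35 with bezafibrate and 7.20 with DMSO (ratio 0.15). The remaining 7, Mrpl2, Mrpl48, Mrpl27, Mrpl55, Mrpl16, Mrpl45 and Mrpl9, had ratios from 0.01 for Mrpl9 to 0.06 for Mrpl2. Mrpl27, a protein next to the site where peptide bonds form, was the dimmest gene of the subunit, at 5.08 with bezafibrate and 5.02 with DMSO.

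Members were also sorted by place in the large subunit, a grouping made after the values had been seen. Each group had more lower than higher genes, as did the whole subunit (34 of 43 lower). Over all genes above the floor 49.6% were lower. The groups are too small to show a difference by place. The stalk, which recruits translation factors, and its base were lower in 3 of 3 genes. Mrpl10 read 8.34 with bezafibrate and 8.62 with DMSO, Mrpl11 6.28 and 6.49, and Mrpl12 6.70 and 6.86. Mrpl12 is also known as a partner of the mitochondrial RNA polymerase. Around the exit of the tunnel 4 of 6 genes were lower, with ratios from −0.55 for Mrpl23 to 0.16 for Mrpl47. Mrpl45, which holds the ribosome at the inner membrane, was among the higher ones, at 6.83 with bezafibrate and 6.81 with DMSO. In the central protuberance, the crown of the subunit that contacts transfer RNA, 6 of 9 genes were lower, with a median of −0.18. Mrpl58, a peptidyl-tRNA hydrolase built into this region, read 8.30 with bezafibrate and 8.51 with DMSO.

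The small subunit had 27 genes above the floor, of which 20 were lower and 6 higher, and their median log2 ratio was −0.11. Of all genes above the floor 49.6% were lower and 48.4% higher. Mrps16, a counterpart of a bacterial body protein and a gene of inherited mitochondrial disease in humans, stood lowest. It read 7.14 with bezafibrate and 7.83 with DMSO, a 1.62-fold lower signal. Mrps21 read 5.92 with bezafibrate and 6.35 with DMSO (1.35-fold lower). Mrps24, which lies where messenger RNA enters, read 7.61 and 8.004 in the same order (1.32-fold lower). Mrps7, an early-binding protein of the head, read 6.96 with bezafibrate and 7.22 with DMSO (log2 ratio −0.27). Those were the 4 of 27 small subunit genes at least 1.2-fold lower, where 10.4% of all genes above the floor were lower by that much. All 4 are counterparts of bacterial proteins, as are 17 of the 27. Mrps28, Mrps11, Mrps34 and Mrps12 came next, with ratios from −0.25 for Mrps28 to −0.18 for Mrps12. Mrps12, the protein of the decoding centre, read 5.77 with bezafibrate and 5.95 with DMSO.

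Among the higher small subunit genes Mrps10, a head protein, had the largest ratio, at 6.75 with bezafibrate and 6.49 with DMSO (1.19-fold higher). Mrps17 read 6.58 with bezafibrate and 6.34 with DMSO (1.18-fold higher, with the opposite sign on a second probe set), and Mrps14 5.44 and 5.26 (1.13-fold higher). Mrps9, Mrps30 and Mrps35 had ratios of 0.12, 0.12 and 0.08. In the head of the subunit, a grouping made after the values had been seen, 4 of 8 genes were lower, with a median of 0.02. Over all genes above the floor 49.6% were lower, and 8 genes are too few to show a difference by place. Mrps15, the brightest small subunit gene, differed little, at 8.37 with bezafibrate and 8.38 with DMSO. Mrps36 was the only member below the floor, at 4.42 with bezafibrate and 4.10 with DMSO (log2 ratio 0.32), and both values lay within the range of the silent receptor genes. Its product is now known as a part of the 2-oxoglutarate dehydrogenase complex rather than of the ribosome.

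Differences between the subunits were smaller than the spread of genes within either. The median log2 ratio was −0.12 for the large and −0.11 for the small subunit, a difference of −0.01, while the ratios ran from −0.75 to 0.16 in the large and from −0.69 to 0.26 in the small. Means differed more, at −0.16 for the large and −0.10 for the small subunit. At 1.2-fold 11 of 43 large and 4 of 27 small subunit genes were lower, where 10.4% of all genes above the floor were. Signal levels covered the same ground. Large subunit genes ran from 5.08 to 8.86 with bezafibrate, with a median of 6.92, and from 5.02 to 9.26 with DMSO, with a median of 7.06. Small subunit genes above the floor ran from 5.44 to 8.37 with bezafibrate (median 6.86) and from 5.26 to 8.38 with DMSO (median 6.78). The small subunit's 2 median levels belong to different genes, Mrps34 with bezafibrate and Mrps30 with DMSO. Their order is therefore opposite to that of its median ratio, which compares each gene with itself. Probes differ in brightness for equal amounts of RNA, so these levels do not order genes or subunits by abundance. No test of the difference between subunits is possible with 1 array a group.

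Names and structure disagree for a few genes: the products of Mrps18a and Mrps30 sit in the large subunit of the mammalian mitoribosome. Moving both there left the medians at −0.12 for each subunit. Mrps18a, Mrps18b and Mrps18c are related copies of 1 bacterial protein, of which only Mrps18c keeps the original place. They read 6.99, 7.54 and 6.06 with bezafibrate, against 6.997, 7.61 and 6.13 with DMSO, so all 3 differed by 1.05-fold or less on their brightest probe sets. The dimmer probe set of Mrps18c was 1.47-fold higher with bezafibrate. Origin made little difference in the large subunit, where 21 of 28 genes with a bacterial counterpart and 13 of 15 specific to mitochondria were lower, with medians of −0.12 and −0.13. In the small subunit 12 of 17 and 8 of 10 were lower in the same order, with medians of −0.07 and −0.12.

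Of the 71 members, 9 were read by a second probe set, and its ratio had the same sign as the first in 5. Mrps16, the lowest small subunit gene, was low on both, with 7.14 and 7.83 on the brighter and 6.90 and 7.54 on the other probe set (bezafibrate and DMSO in that order), ratios of −0.69 and −0.64. Mrpl10 had ratios of −0.28 and −0.19, Mrpl36 −0.24 and −0.15, Mrps5 −0.12 and −0.15, and Mrps18b −0.07 and −0.09. The signs were opposed in 3 genes. Mrps17 had 0.24 on the brighter and −0.47 on the dimmer probe set, Mrpl47 0.16 and −0.24, and Mrps18c −0.06 and 0.56. Mrpl12 had −0.17 and exactly 0. The second probe sets of Mrpl36 (3.92 with bezafibrate and 4.06 with DMSO), Mrps5 (4.22 and 4.37) and Mrpl47 (4.43 and 4.67) lay within the range of the silent receptor genes. That of Mrpl12 read 4.83 on both arrays, below the floor. The second ratios of these genes therefore say little for or against the first. For Mrps17, counted as higher, and Mrps18c, counted as lower, the sign rests on which probe set is read. The dimmer probe set of Mrps18c read 5.69 with bezafibrate and 5.14 with DMSO, above the floor and 1.47-fold higher. Whether the probe sets of a gene share probes is not given in the sources used here.

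**Figure D2:**
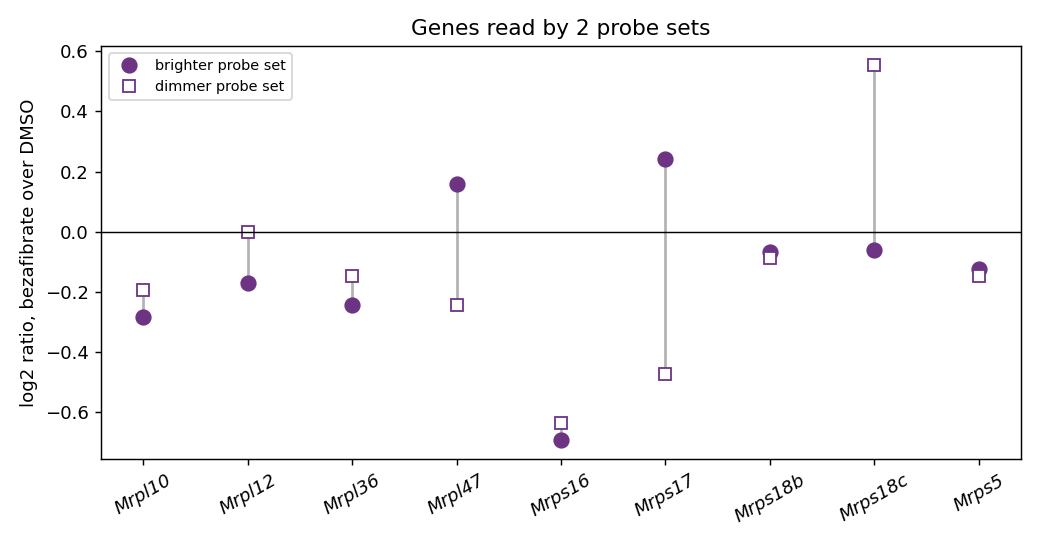
Log2 ratio of bezafibrate over DMSO on the brighter (filled circle) and dimmer (open square) probe set of the 9 members that have 2. The pair of Mrps16 lies close together near −0.69 and −0.64, while those of Mrpl47, Mrps17 and Mrps18c lie on opposite sides of 0.

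A further 7 genes named by the rule, Mrpl30, Mrpl33, Mrpl41, Mrpl43, Mrpl44, Mrpl53 and Mrps6, were read only by probe sets that also name another gene and are not counted above. Mrpl43 shared its probe set with Twnk, which encodes the mitochondrial DNA helicase, and read 7.12 with bezafibrate and 7.45 with DMSO. Twnk on its own probe set read 5.60 and 5.73. Mrpl41 (shared with Dph7) had a log2 ratio of −0.17, Mrpl30 (with Gm6238) −0.15, and Mrpl44 (with Wdfy1) 0.04. Mrpl33 had −0.22 on 1 shared probe set and 0.11 on another, and Mrpl53 −0.17 and 0.03. Mrps6, shared with Slc5a3, had exactly the same value on both arrays. With these included, 49 large and 28 small subunit genes lay above the floor. Of them 16 were at least 1.2-fold lower, where 10.4% of all genes above the floor were.

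Promoters were examined because most members leaned the same way. The sequences below are picked examples and do not stand for lower and higher members in general. They show the lowest member, Mrpl32, and the highest above the floor, Mrps10. Mrpl22 is shown for the NRF1 letters, and Mrpl36 and Mrps11 for the YY1 letters. Nuclear genes of mitochondria are known to be driven by NRF1, by ETS factors such as GABP and by YY1, and growth genes by MYC at E-boxes. The RefSeq table (GRCm38.p6) held a window from 250 bases before to 50 after the gene start for 62 of the 71 genes. Each window was searched on both strands for GCGCATGC (NRF1), CCGGAAGT (ETS), AAGATGGC (YY1) and CACGTG (E-box). The 250 bases before the start are printed 5′ to 3′ on the gene's strand, with matches in capitals. The printed bases of Mrpl32 lie at chr13:14613038-14613287 on the minus strand, those of Mrpl22 at chr11:58171414-58171663 on the plus strand, those of Mrpl36 at chr13:73330759-73331008 on the plus strand, those of Mrps11 at chr7:78782881-78783130 on the plus strand and those of Mrps10 at chr17:47368947-47369196 on the plus strand.
Mrpl32: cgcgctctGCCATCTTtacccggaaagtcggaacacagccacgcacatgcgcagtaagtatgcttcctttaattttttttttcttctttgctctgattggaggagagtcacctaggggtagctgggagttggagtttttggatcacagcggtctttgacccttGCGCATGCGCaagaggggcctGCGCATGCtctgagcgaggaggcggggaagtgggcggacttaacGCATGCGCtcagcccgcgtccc
Mrpl22: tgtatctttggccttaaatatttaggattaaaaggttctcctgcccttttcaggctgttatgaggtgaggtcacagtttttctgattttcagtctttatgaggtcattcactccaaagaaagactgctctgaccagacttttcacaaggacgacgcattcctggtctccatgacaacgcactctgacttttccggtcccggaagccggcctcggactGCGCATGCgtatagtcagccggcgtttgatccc
Mrpl36: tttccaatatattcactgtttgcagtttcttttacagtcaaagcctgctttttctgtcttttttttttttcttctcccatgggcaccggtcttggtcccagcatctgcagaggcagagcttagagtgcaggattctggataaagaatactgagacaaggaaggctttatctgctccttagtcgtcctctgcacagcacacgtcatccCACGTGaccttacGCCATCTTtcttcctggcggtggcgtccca
Mrps11: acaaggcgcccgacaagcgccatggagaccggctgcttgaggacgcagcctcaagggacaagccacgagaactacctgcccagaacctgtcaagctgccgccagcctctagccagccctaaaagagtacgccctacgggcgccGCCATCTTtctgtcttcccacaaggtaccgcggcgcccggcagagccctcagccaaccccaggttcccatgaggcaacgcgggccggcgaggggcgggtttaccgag
Mrps10: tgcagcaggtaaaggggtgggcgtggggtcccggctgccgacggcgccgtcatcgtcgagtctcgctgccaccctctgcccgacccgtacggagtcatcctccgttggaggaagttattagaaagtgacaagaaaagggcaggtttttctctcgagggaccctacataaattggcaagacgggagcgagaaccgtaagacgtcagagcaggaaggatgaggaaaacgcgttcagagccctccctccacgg

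The window of Mrpl32 held 4 matches to the NRF1 letters. A pair of them, starting 87 and 85 bases before the start, overlapped to form the full palindrome of the NRF1 site, and a YY1 match lay 242 bases before the start. In Mrpl22 the NRF1 match began 33 bases before the start. In Mrpl36 and Mrps11 the YY1 letters, read on the opposite strand, began 30 and 107 bases before it. None of the searched letters was in the Mrps10 window, nor in those of the low members Mrps16, Mrpl23 and Mrps21. Of the higher members, Mrpl3, Mrpl27 and Mrpl48 held the ETS letters, Mrpl2 the E-box and Mrpl9 the NRF1 letters. Over the 62 members with a window, 19.4% held the YY1 letters, against 5.35% of the 8987 genes above the floor with a window and 3.19% of all 27025 genes with one. The ETS letters were in 16.1% of members, 9.26% of genes above the floor and 4.31% of all. The NRF1 letters were in 11.3%, 6.01% and 3.05%, and the E-box in 8.06%, 11.6% and 8.09%. The NRF1 letters were in 6 of 37 large and 1 of 25 small subunit genes, and the YY1 letters in 6 of each. A match describes the letters of the window and is not a binding site, and the share of G and C was close in members and in genes above the floor, with medians of 58.0% and 60.7%.

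Other genes of mitochondrial gene expression did not show the lean of the ribosomal proteins. Gene length, taken up below, differed between these lists and the members. Among 11 translation factors above the floor 7 were higher and 4 lower, and their median log2 ratio was 0.06. Tufm, the elongation factor that brings transfer RNA to the ribosome, read 8.18 with bezafibrate and 8.24 with DMSO. Guf1 and Gfm2 had the highest ratios (0.27 and 0.26), and the initiation factor gene Mtif3 and the recycling factor gene Mrrf the lowest, −0.41 and −0.17. Of 27 genes of mitoribosome assembly and ribosomal RNA modification 13 were lower, 11 higher and 3 equal, with a median of 0.00. Mpv17l2, an inner membrane protein needed for assembly in human cells, was the lowest of them, at 7.69 with bezafibrate and 8.36 with DMSO (1.59-fold lower). Tfb1m, which methylates the small ribosomal RNA, had a ratio of −0.21, and Ngrn and Ddx28, both needed for the large subunit in human cells, 0.25 and 0.15.

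Mitochondrial aminoacyl-tRNA synthetases, which charge the transfer RNAs the mitoribosome uses, were higher for 12 of 16 genes, at a median of 0.11. Mars2 read 6.37 with bezafibrate and 5.90 with DMSO (1.38-fold higher), and Nars2 had a ratio of 0.30. Vars2 and Sars2 were lowest, at −0.16 and −0.12. Genes of mitochondrial DNA replication, transcription and messenger RNA stability divided into 4 higher and 4 lower among the 8 above the floor (median 0.04). Lrpprc, which stabilises mitochondrial messenger RNAs, read 8.07 with bezafibrate and 7.58 with DMSO (1.40-fold higher), and Tfb2m had a ratio of 0.27. Tfam, the packaging and transcription factor of mitochondrial DNA, had −0.03, and Polrmt, the polymerase, −0.17. Messenger RNAs encoded in mitochondrial DNA are the templates of the mitoribosome. Of 10 probe sets named for 1 such gene alone, 9 were higher and 1 lower, with ratios from −0.0015 for COX3 to 0.20 for CYTB. Over all genes above the floor 48.4% were higher. The ND4L probe set (0.18) is numbered apart from the others, and whether it reads the mitochondrial messenger RNA was not tested. CYTB read 12.26 with bezafibrate and 12.07 with DMSO, near the top of the scale. The mitochondrial ribosomal RNA genes mt-Rnr1 and mt-Rnr2 had no probe set named for them. Of mitoribosome proteins with other names 3 had a probe set of their own: Gadd45gip1, of the large subunit, had a log2 ratio of −0.40, and Dap3 and Ptcd3, of the small, had −0.26 and 0.24. Chchd1, read only together with another gene, had 0.06.

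Nuclear respiratory chain subunits and cytosolic ribosomal proteins, lists drawn by symbol after the members' values had been seen, were lower too. Of 72 respiratory chain and ATP synthase subunits above the floor 65 were lower, with a median log2 ratio of −0.23, and 31 were at least 1.2-fold lower. Of 57 cytosolic ribosomal proteins 45 were lower, with a median of −0.11, and 14 were at least 1.2-fold lower. Over all genes above the floor 49.6% were lower and 10.4% at least 1.2-fold lower. The mitoribosome's median of −0.12 lay beside that of the cytosolic ribosome. With 1 array a group, the difference between any of these lists could not be tested.

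**Figure D3:**
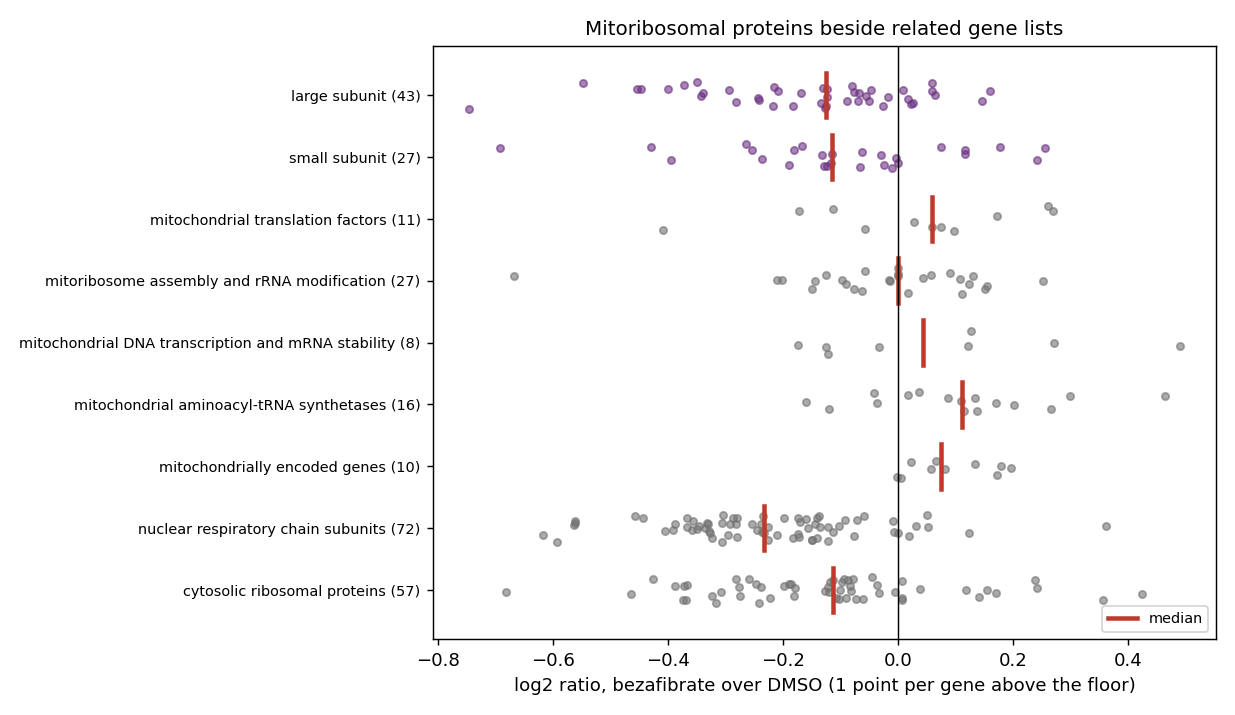
Log2 ratio of bezafibrate over DMSO for each gene above the floor (1 point a gene, number of genes in brackets), with the median of each list as a red bar. The medians of both mitoribosome subunits (−0.12 and −0.11) lie left of 0 with those of the respiratory chain subunits and cytosolic ribosomal proteins, and those of translation factors, synthetases and mitochondrially encoded genes lie right of it.

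Gene length moved with these ratios. Members were short genes, with a median of 7690 bases from start to end, against 19981 over all genes above the floor, and short genes were lower in general. Under 5000 bases 18 of 22 members were lower (81.8%), against 63.0% of the other genes of that length, with median ratios of −0.19 and −0.08. From 5000 to 10000 bases 20 of 26 members were lower (76.9%), against 66.0%, with medians of −0.11 and −0.09. From 10000 to 20000 bases 11 of 13 were lower (84.6%), against 57.2%, with medians of −0.11 and −0.04. Above 20000 bases 5 of 9 were lower (55.6%), against 37.6%, with medians of −0.03 and 0.05. Once each ratio was set against the median of genes similar in both level and length, 44 of the 70 members (62.9%) were lower, against 49.8% of all genes above the floor with a known length, and the members' median came to −0.052, that of the large subunit to −0.045 and that of the small to −0.069. By subunit 29 of 43 large (67.4%) and 15 of 27 small subunit genes (55.6%) were then lower. Small subunit genes with a bacterial counterpart were lower in 8 of 17, at a median of 0.00, and those specific to mitochondria in 7 of 10. By the same step the respiratory chain subunits had a median of −0.15 and the cytosolic ribosomal proteins 0.01. Mitochondrial translation factors, assembly genes and aminoacyl-tRNA synthetases were longer than the members, with median lengths of 17273, 13223 and 25131 bases. Their medians after the step were 0.10, 0.02 and 0.12. The part of gene length in the members' ratios was not otherwise tested. Mrpl32 and Mrps16, at 2737 and 2413 bases, had ratios of −0.66 and −0.53 after that step.

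**Figure D4:**
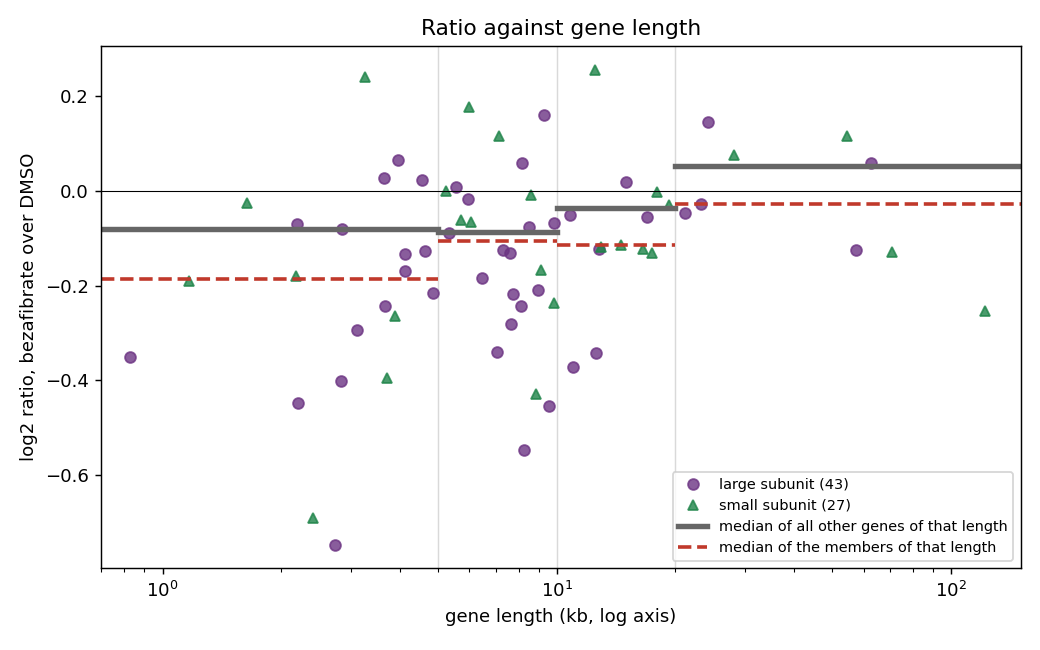
Log2 ratio of bezafibrate over DMSO of the 70 members above the floor against gene length on a log axis, with large subunit genes as circles and small subunit genes as triangles. The dashed red lines, the members' median in each of 4 length classes, lie below the solid grey lines, the median of all other genes of that length, in all 4, closest from 5 to 10 kb.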

How the data were processed

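Total RNA of 2 cultures (100 ng each), 1 with bezafibrate and 1 with DMSO, was amplified with a whole-transcript kit and hybridised to Affymetrix arrays, per the labels' protocols. The deposited values are log2 signals per probe set; the submitters' processing notes name RMA and Affymetrix Expression Console, and no version or build is given in the sources used here. The log2 scale was inferred from the range of the values. RMA equalises arrays processed together, so ratios are relative to the other genes. The number of arrays limits the precision.

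Of 41801 probe sets 8008 were blank, and of the 33793 with values 23521 named 1 gene, 1814 several and 8458 none. Silent genes were 1390 odorant and pheromone receptor genes, and a level within their range is one under their 95th percentile, 4.68 with bezafibrate and 4.71 with DMSO. Members, gene lists and limits were chosen with earlier results of these data known. Named genes were the 8 highest and 8 lowest members of each subunit above the floor, the brightest and dimmest, those with over 1 probe set, a fixed set (Mrpl12, Mrps12, Mrps18a, Mrps18b, Mrps18c, Mrps30, Mrps36 and Tfam, Polrmt, Tufm, Dap3, Lrpprc, mt-Rnr1, mt-Rnr2), and the extremes of the other lists; the text gives values for those that describe each group. Members with other places in the structure, and genes sharing a probe set, were added after their values were seen. Gene lengths and promoters came from RefSeq (GRCm38.p6). Adjusted ratios subtract the median of genes in 10 classes of level by 10 of length. Calculations used Python 3.11.15, numpy 2.4.6, pandas 2.3.3, statsmodels 0.14.6 and matplotlib 3.10.9, and the list summaries were tested on simulated data.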

Additional observations from a re-analysis of the deposited data

How the results depend on the processing

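The lower medians of both subunits kept their direction under all 12 alternatives tried. Every alternative reuses the same 2 arrays and cannot stand in for a replicate. Under 11 alternatives the large subunit's median log2 ratio ran from −0.16 to −0.12 and the small subunit's from −0.13 to −0.09. Set against the median of genes similar in level and length, they moved to −0.045 and −0.069. The count of members at least 1.2-fold lower stayed between 10 and 17 under 11 alternatives, and was 2 at 1.5-fold and 0 at 2-fold, as the higher limits require. The difference between subunit medians, large minus small, was −0.01 and is too small to carry a direction: set against genes similar in level and length it reversed to 0.025. It was −0.061 for means, and −0.034 without a floor, with probe sets of several genes included and without the member farthest from each median. A value was taken as moved when it changed by over 1.5 times and by at least 0.02. No paired analysis was possible because each group has 1 array. Dim members are the least certain: the log2 ratios of silent genes had a robust SD of 0.31, and 41.6% of them differed at least 1.2-fold either way.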

Other observations

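Members whose promoter window held the YY1 letters AAGATGGC were all lower with bezafibrate, 12 of 12, at a median of −0.21. Their ratios ran from −0.75 for Mrpl32 to −0.003 for Mrps18a, which hardly differed between the arrays. The 49 members without them had a median of −0.08, and 69.4% were lower. The letters lay after the gene start in 8 of the 12 and before it in 4. Among genes that are not members, 469 held the letters, with a median of 0.00 and 50.1% lower, against a median of 0.00 and 49.6% lower in the 8457 without them. The split was made after the ratios had been seen, and it has no test. Members with the NRF1 letters (7) had a median of −0.12 and the 54 without −0.10. For the ETS letters the medians were −0.07 (10 members) and −0.12 (51), and for the E-box −0.06 (5) and −0.12 (56).

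Across the 70 members, which share both arrays, Spearman's rho of the log2 ratio was 0.27 with gene length and −0.22 with level. Across the other genes above the floor it was 0.28 with length (11364 genes) and 0.07 with level (11378). The 4 members with an own probe set that were also read by a shared one had shared ratios of 0.32 for Mrpl19 (−0.24 on its own), −0.08 for Mrpl47, 0.07 for Mrps27 (−0.13 on its own) and −0.25 for Mrps34 (−0.19 on its own).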
